A study of Mus musculus with 8 samples.

Results

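The subject is the odorant receptor (OR) genes numbered Olfr986 to Olfr1317, the largest group of OR genes in the mouse genome by number, measured in the olfactory mucosa of mice that lack the homeodomain transcription factor Emx2 in part of their olfactory sensory neurons (OSNs). Members were taken by name: each array row with a single Olfr symbol in that number range, pseudogene symbols included, which gave 241 of the 23410 rows with a gene symbol and 23.3% of the 1034 rows with 1 OR symbol. The 241 rows cover 238 genes, since 3 genes have more than 1 row. The name range is not quite one place in the genome. RefSeq's mouse gene table put 240 of the rows on chromosome 2 and the remaining row, Olfr986, on chromosome 9, and the 240 fall into 2 runs with 119 protein-coding genes that are not ORs between them. Run 1 holds 203 rows from Olfr987 to Olfr1274, and run 2 holds 37 rows from Olfr1275 to Olfr1317. The same table lists 320 genes in the number range, of which 76 are pseudogenes, and the rows here cover all but 12 of the 244 protein-coding ones with a row of their own.

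A total of 8 arrays of RNA from whole olfactory mucosa at postnatal day 1 were compared, 4 from knockouts and 4 from littermate controls. The knockouts were 123Cre:Emx2(fl/fl), carrying the 123Cre transgene and 2 floxed Emx2 alleles. The controls were 2 mice of genotype 123Cre:Emx2(fl/+), which carry Cre and 1 floxed allele, and 2 of genotype Emx2(fl/fl), which carry floxed alleles without Cre, so that every mouse had at least 1 floxed allele and the background was a mix of 129 and C57BL/6J. The 123Cre transgene is active from the immature OSN stage onwards and recombines in only part of the neurons. Each array is 1 sample with its own label, but the labels give neither litter nor sex, so the errors below are the spread between these samples. In RNA from whole mucosa, fewer neurons expressing a receptor and less receptor mRNA per neuron cannot be told apart.

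An OR is a G-protein-coupled receptor of the olfactory cilia that detects odorants. Each OSN expresses a single OR allele, picked from a repertoire of genes arranged in clusters on many chromosomes, and the choice is set up by heterochromatin, by enhancers that contact promoters across chromosomes, and by Lhx2 and Ebf proteins binding near OR promoters. Emx2, like Lhx2, binds homeodomain-type sites. Within a cluster, neighbouring genes often arose by tandem duplication, and receptors are grouped into MOR families by sequence likeness, so that close neighbours are often close relatives. The members named here encode receptors whose ligands are not described in these data.

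The targeted gene followed its labels: Emx2 was 10.84 ± 0.12 in controls and 9.90 ± 0.09 in knockouts (log2, SD, n = 4 each), a decrease of 48.0% with a limma adjusted p of 0.0014. Lhx2 was 12.52 ± 0.04 and 12.51 ± 0.08. Of the arrays, that of knockout replicate 2 was least like the rest, with a mean correlation of 0.979 with them against 0.988 to 0.991 for the others and an array weight of 0.17 against 0.66 to 2.84. It was the lowest of the 8 samples in 187 of the 241 rows of the cluster, 77.6%, against 62.9% of other OR rows and 26.1% of all rows. The sample titles also carry a number from 1 to 8, read here as array order, though what it stands for is not given. By that number, the mean level of the cluster was 6.41 to 7.08 on arrays 1 to 4 and 7.20 to 7.32 on arrays 5 to 8. Results are therefore given with and without knockout replicate 2, and with array order as a term. That term has 2 levels, arrays 1 to 4 and arrays 5 to 8. Markers of mature OSNs, 15 of 15 measured and none near 0, summed to 173.6 to 175.3 log2 units in controls and 171.8 to 174.0 in knockouts, and 0 of them passed the test. Immature OSN markers, 15 of 15 measured, summed to 166.6 to 168.7 and 165.2 to 166.2, with 0 passing. Their part in the differences below was not tested beyond recentring each array on the mature OSN markers.

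Averaged over the 241 rows, the cluster differed little between genotypes beside the spread within each group. The mean log2 level was 7.08, 6.80, 7.25 and 7.28 in control replicates 1 to 4 and 6.87, 6.41, 7.20 and 7.32 in knockout replicates 1 to 4. The groups overlapped, with knockout replicate 2 lowest and knockout replicate 4 highest of all. The means were 7.10 ± 0.22 in controls and 6.95 ± 0.41 in knockouts (SD, n = 4 each), a difference of -0.15 that became 0.03 without knockout replicate 2. Among arrays 1 to 4 the difference was -0.30, and among arrays 5 to 8 it was -0.004. Single members were mostly below 0: 179 of 241 were lower and 62 higher in the knockout, with a median difference of -0.18, beside -0.19 over the 793 OR rows outside the cluster and 0.004 over all rows. Without knockout replicate 2 the split was 125 lower to 116 higher and the median -0.01.

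**Figure D1:**
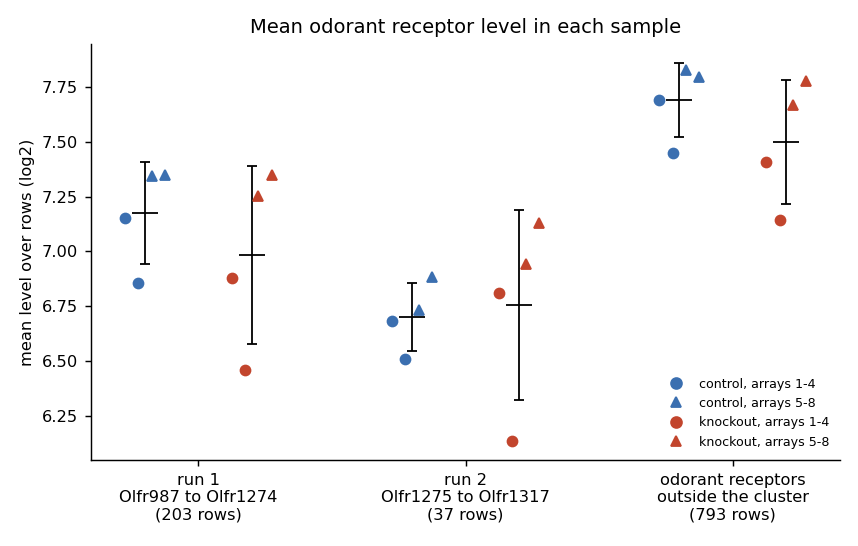
Mean log2 level over the rows of run 1, run 2 and the ORs outside the cluster in each of the 8 samples; blue points are controls, red points knockouts, circles arrays 1 to 4 and triangles arrays 5 to 8, and the black bars are the group mean ± SD (n = 4). The groups overlap in all 3 sets, knockout replicate 2 is the lowest point of each, and the knockout mean lies below the control mean in run 1 (6.98 against 7.17) but not in run 2 (6.76 against 6.70).

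The members of run 2 sat higher, relative to controls, than those of run 1. In run 1, 166 of 203 rows were lower in the knockout and the median difference was -0.20. In run 2, 25 of 37 rows were higher and the median was 0.09. Measured within each sample as the mean of run 2 minus the mean of run 1, each taken from its own control mean, the 4 controls gave 0.004, 0.13, -0.14 and 0.01 and the 4 knockouts gave 0.41, 0.15, 0.16 and 0.25. The groups did not overlap on this measure, and knockout replicate 2, lowest in both runs, lay with the other knockouts. Without that sample the medians were -0.05 in run 1 and 0.27 in run 2, where 33 of 37 rows were then higher. Among arrays 1 to 4 the medians were -0.32 in run 1 and -0.06 in run 2, where 16 of 37 rows were above 0, and among arrays 5 to 8 they were -0.07 and 0.16, with 29 of 37 above 0 in run 2. The median of run 2 was 0.01 (21 of 37 above 0) without control replicate 2, 0.02 (19 of 37) without knockout replicate 4 and 0.02 (19 of 37) against 123Cre:Emx2(fl/+) alone. It was 0.17 without control replicate 4, 0.05 without knockout replicate 3 and 0.20 against Emx2(fl/fl) alone. With the dimmest 30% of all rows left out, 9 rows of run 2 remained and their median was -0.19, beside -0.28 over 85 rows of run 1. The runs were compared with these differences in view, so the comparison is a description without a test.

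No member passed the test across all genes. With all 8 samples, 0 of 241 rows had a limma adjusted p under 0.05 (lowest 0.181), beside 0.359% of all rows tested. At an unadjusted p under 0.05 there were 16 members, 12 lower and 4 higher, which is 6.64% of the cluster beside 6.1% of all rows. At an unadjusted p under 0.01, 4 members were lower and 0 higher, beside 1.3% of all rows lower and 0.436% higher. In 5 members the 2 groups did not overlap with the knockouts lower, and in 0 with the knockouts higher, where the shares over all rows were 2.54% and 1.98%. Over all rows, 716 were lower and 711 higher at an unadjusted p under 0.05, a more even split than the 12 and 4 of the cluster. The lean to the lower side was not particular to the cluster. Of the 793 OR rows outside it, 128 were lower and 20 higher at that threshold, 18.7%. At an unadjusted p under 0.01, 4.67% of those rows were lower and 1.01% higher. Their groups did not overlap in 6.31% with the knockouts lower and in 1.77% with the knockouts higher.

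The 4 members lower at an unadjusted p under 0.01 were Olfr1087, Olfr1214, Olfr1037 and Olfr1029, which belong to 4 different MOR families. Olfr1087, of family MOR188, measured 7.72, 7.59, 8.13 and 8.08 in the controls and 6.93, 6.65, 7.28 and 7.29 in the knockouts. Every knockout lay below every control. The difference was -0.84 ± 0.18 (SE), a decrease of 44.2%, with an unadjusted p of 0.00111 and an adjusted p of 0.181 in limma. It was alike across the array order, -0.86 on arrays 1 to 4 and -0.82 on arrays 5 to 8, and with array order as a term its adjusted p was 0.0024. Across all alternative settings tried it ranged from -0.94 to -0.69.

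Olfr1214, of family MOR233, was 6.24, 5.95, 6.39 and 6.41 in the controls and 5.45, 5.41, 6.01 and 5.72 in the knockouts. Knockout replicate 3 overlapped the lowest control and the other knockouts lay below all controls. The difference was -0.60 ± 0.15 (SE), and array order as a term gave it an adjusted p of 0.035. Its relative Olfr1222, also of MOR233, measured 8.94, 8.87, 9.53 and 9.53 against 8.37, 7.88, 8.80 and 8.97. The difference of -0.71 ± 0.26 (SE) had an adjusted p of 0.733 without the order term and 0.030 with it. Olfr1087, Olfr1214 and Olfr1222 were the 3 members that passed with array order as a term, all lower, beside 0.44% of all rows passing in that direction. At an unadjusted p under 0.01 that fit listed 13 members lower and 2 higher, 5.39% and 0.83% of the cluster, beside 1.91% and 0.726% of all rows. Among the 793 OR rows outside the cluster it listed 13.4% lower and 1.51% higher. Of those rows, 11 passed lower and 4 higher.

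Olfr1037 had the lowest difference of the cluster. Its levels were 8.04, 7.14, 7.83 and 7.36 in controls and 6.16, 6.23, 7.17 and 7.07 in knockouts, a difference of -0.94 ± 0.28 (SE). The knockouts of arrays 1 to 4 lay far below and those of arrays 5 to 8 close to the lowest controls, so that the difference was -1.39 on the former and -0.48 on the latter. Olfr1029 was 6.54 ± 0.28 in controls and 6.07 ± 0.16 in knockouts (SD, n = 4), and Olfr1031 was 8.82 ± 0.30 and 8.25 ± 0.29. Neither of these overlapped between groups, but in both knockout replicate 4 lay only just below the lowest control. In Olfr1029 it all but equalled control replicate 1. The other non-overlapping members were Olfr995 at -0.20 and, away from chromosome 2, Olfr986 at -0.33.

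**Figure D2:**
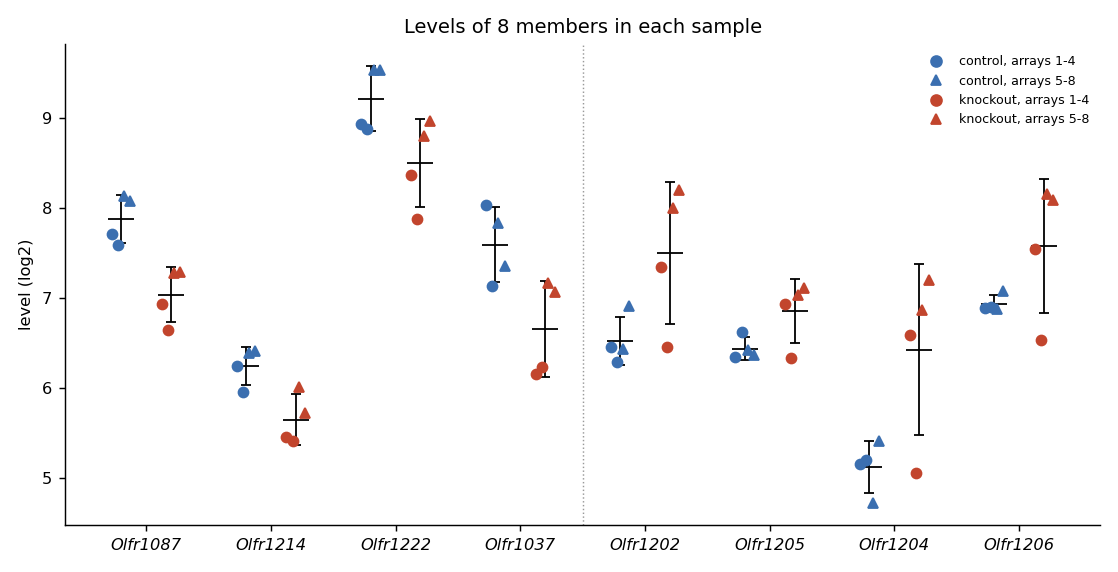
Log2 level of 8 members in each sample, with symbols and bars (mean ± SD, n = 4) as in the plot of mean levels. To the left of the dotted line are 4 members with lower knockout levels, each with both knockouts below both controls among circles and among triangles; to the right are 4 neighbours in run 1, where 3 knockouts lie above all controls and knockout replicate 2 lies among or below them.

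Differences varied with place along the chromosome. When the rows were taken in gene order in consecutive stretches of 25, the first 5 stretches of run 1, from Olfr987 to Olfr1168, had medians of -0.20, -0.32, -0.20, -0.28 and -0.23. In the 4th and 5th of these all 25 rows were below 0, but without knockout replicate 2, 10 and 2 of the 25 were above 0. The 6th stretch, Olfr1173 to Olfr1211, had a median of 0.004 with 13 of 25 rows above 0, and the next 2 had -0.16 and -0.06. The first 25 rows of run 2 had a median of 0.12 with 20 above 0, and its last 12 rows -0.05 with 5 above 0. Without knockout replicate 2 the lowest of the first 5 medians was -0.15, the 6th was 0.16 and the first of run 2 was 0.29. In knockout replicate 1 the median deviation from the control mean was below 0 in each of the first 5 stretches, down to -0.64, 0.02 in the 6th and 0.14 at the start of run 2. Knockout replicate 2 was lower still in each of the first 5 stretches, from -0.82 to -0.57. Measured from the mean of all 4 controls, the knockouts of arrays 5 to 8 were not as low in these stretches. There, knockout replicate 3 lay between -0.04 and 0.08 and knockout replicate 4 between -0.01 and 0.15. At the start of run 2 knockout replicates 3 and 4 were at 0.25 and 0.47. In the first 5 stretches the controls of arrays 5 to 8 also lay above that mean. Control replicate 3 was at 0.17 to 0.32 and control replicate 4 at 0.06 to 0.22. Against the controls of their own arrays, the knockouts of arrays 5 to 8 had medians from -0.19 to -0.04 there. Those of arrays 1 to 4 had medians from -0.54 to -0.31. Differences of immediate neighbours correlated across genes with Pearson's r of 0.37 over 201 pairs in run 1, and 0.50 without knockout replicate 2, beside 0.15 for the control levels of the same pairs. In run 2 the order of these values was the other way, with 0.21 over 34 pairs and 0.12 without that sample, beside 0.36 for control levels. Genes are not independent replicates, the pairs share arrays and, for close relatives, probe sequence, and no test was made.

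**Figure D3:**
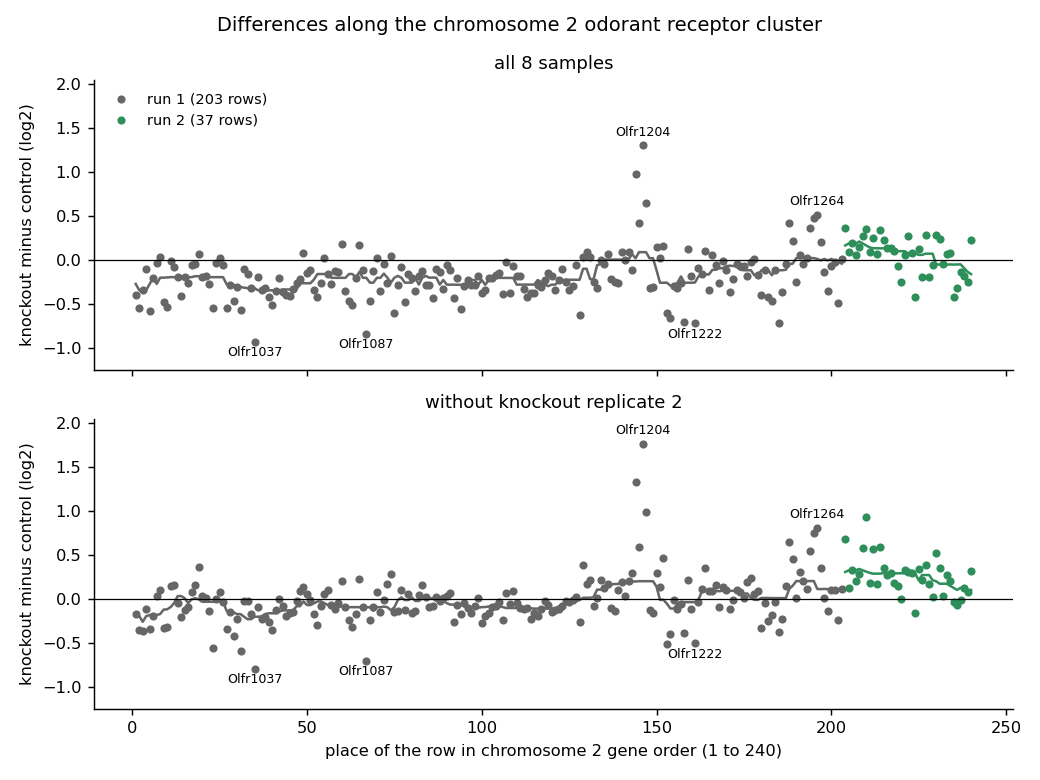
Knockout minus control difference (log2, y axis) of each of 240 rows against its place in chromosome 2 gene order (x axis), with all 8 samples above and without knockout replicate 2 below; lines are running medians over 15 rows within a run. The points lie mostly below 0 up to Olfr1168, a group of neighbours around Olfr1204 stands above the rest, and run 2 lies mostly above 0 in the lower panel.

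**Figure D4:**
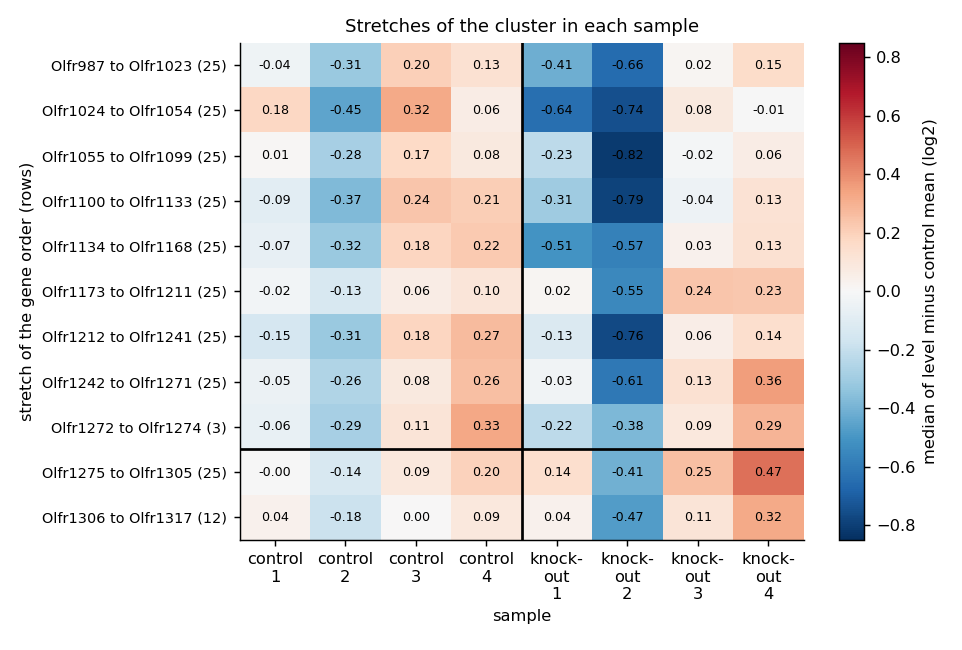
Median, over the rows of each stretch of the gene order (number of rows in brackets), of the level minus the control mean (log2) in each sample; red is above and blue below the control mean, the vertical line parts controls from knockouts and the horizontal line run 1 from run 2. Knockout replicate 2 is below the controls throughout, from -0.82 to -0.38, while knockout replicate 1 goes from -0.41 in the first stretch to 0.14 in the first of run 2 and knockout replicate 4 from 0.15 to 0.47.

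The 3 highest differences of the cluster, those of Olfr1204, Olfr1202 and Olfr1206, lay in a set of 4 rows consecutive in gene order, Olfr1202, Olfr1205, Olfr1204 and Olfr1206, alternating between families MOR232 and MOR230. Olfr1204 and Olfr1206 were singled out as the extremes of their families, and Olfr1202 and Olfr1205 after their values were seen. Olfr1204 measured 5.16, 5.20, 4.72 and 5.41 in the controls and 6.59, 5.05, 6.87 and 7.20 in the knockouts. In all, 3 knockouts lay more than 1 log2 unit above every control, and knockout replicate 2 lay among the controls. With all samples the difference was 1.30 ± 0.41 (SE), 2.47-fold, with an unadjusted p of 0.0120 and an adjusted p of 0.631. Without knockout replicate 2 it was 1.76 ± 0.18 (SE) with an adjusted p of 0.0042.

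Olfr1202, the other MOR232 gene of the group, followed the same pattern. It was 6.45, 6.29, 6.43 and 6.91 in the controls and 7.34, 6.45, 8.01 and 8.20 in the knockouts, a difference of 0.98 ± 0.35 (SE) with all samples and 1.33 ± 0.22 without knockout replicate 2 (limma adjusted p = 0.046). Of the MOR230 genes, Olfr1206 was 6.89, 6.90, 6.88 and 7.08 in the controls and 7.54, 6.54, 8.16 and 8.09 in the knockouts, with differences of 0.64 with all samples and 0.99 without knockout replicate 2 (limma adjusted p = 0.027). Olfr1205 differed by 0.42 and 0.59 (limma adjusted p = 0.030). A further row shared by Olfr1205, Olfr1201 and Olfr1206 differed by 0.41 and 0.71. Relatives this close may share probe signal, so how many of these genes differ is uncertain. Olfr1202, Olfr1204, Olfr1205 and Olfr1206 also have row means among the dimmest 30% of all rows (30th percentile 7.47).

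The rows to either side did not share the pattern. Over the 4 rows the median difference was 0.81, and 1.16 without knockout replicate 2, against -0.21 and 0.04 over the pair of members on each side. Over all their rows, MOR230 had a median of 0.09 and MOR232 of 0.06. Knockout replicate 2 was low across the cluster, so the 4 rows were also read against the mean of all 241 members in the same sample. On that scale Olfr1204 was -1.92, -1.60, -2.53 and -1.86 in the controls and -0.28, -1.36, -0.34 and -0.12 in the knockouts, and the groups no longer overlapped. The same held for Olfr1202, from -0.82 to -0.37 in controls and 0.04 to 0.89 in knockouts, and for Olfr1206, from -0.37 to 0.10 and 0.13 to 0.95. Olfr1205 still overlapped, from -0.91 to -0.18 in controls and -0.20 to 0.06 in knockouts. Centring every array in this way, chosen after the data had been seen, left 0 rows of all 23410 past an adjusted p of 0.05 in limma. It gave 5 members higher and 3 lower at an unadjusted p under 0.01, beside 0.162% and 0.337% of all rows, and moved the median of all rows to 0.16.

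A second set of adjacent rows, chosen after their values were seen, lay near the end of run 1: Olfr1262, Olfr1263, Olfr1264 and Olfr1265. Olfr1264 measured 10.15, 9.96, 10.11 and 10.11 in controls and 10.92, 9.72, 10.80 and 10.94 in knockouts. Again 3 knockouts lay well above the narrow control range and knockout replicate 2 below it. The difference was 0.51 ± 0.25 (SE) with all samples (limma adjusted p = 0.845) and 0.81 ± 0.07 without knockout replicate 2 (adjusted p = 0.0023). Olfr1263 differed by 0.48, and by 0.75 without that sample (limma adjusted p = 0.019). Olfr1262 at 0.36 and Olfr1265 at 0.20 became 0.54 and 0.35 and did not pass. A row shared by Olfr1265 and Olfr1269 went the other way, at -0.11 and, without that sample, 0.05. The median over the 4 was 0.42, beside -0.09 over the pair of members on each side.

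Without knockout replicate 2, 7 members passed the test, all higher: Olfr1202, Olfr1204, Olfr1205, Olfr1206, Olfr1263, Olfr1264 and, in run 2, Olfr1307 at 0.52 (limma adjusted p = 0.032). The share over all rows passing in that direction was 0.0982%. At an unadjusted p under 0.01 that fit listed 17 members higher and 2 lower, beside 1.36% and 1.78% of all rows. In 21 members every remaining knockout lay above every control and in 5 below, beside 4.62% and 5.6% of all rows. Weighting the arrays by their agreement in place of leaving one out gave 8 calls, 7 of them higher (the 4 neighbours, Olfr1256, Olfr1263 and Olfr1264) and 1 lower (Olfr1087), beside 0.222% and 0.735% of all rows. Since the call for each of the higher members depends on how 1 array is treated, none is counted as a change in the 8 samples.

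Upstream sequences are shown for members of these groups: Olfr1204 and Olfr1206 from the first, Olfr1263 and Olfr1264 from the second, and Olfr1214 as a member on the lower side. Each is RefSeq's window of 300 bases on build GRCm38.p6, from 250 bases before the annotated start to 50 bases into the gene, written 5′ to 3′ on the gene's strand. Capitals mark TAATNA or its reverse complement TNATTA, a core of the kind that homeodomain proteins bind. In all 5 windows the annotated start is the ATG of the coding sequence, so the windows show sequence next to the coding region and need not hold the promoter.
Olfr1204, chr2:88851702-88852001, plus strand: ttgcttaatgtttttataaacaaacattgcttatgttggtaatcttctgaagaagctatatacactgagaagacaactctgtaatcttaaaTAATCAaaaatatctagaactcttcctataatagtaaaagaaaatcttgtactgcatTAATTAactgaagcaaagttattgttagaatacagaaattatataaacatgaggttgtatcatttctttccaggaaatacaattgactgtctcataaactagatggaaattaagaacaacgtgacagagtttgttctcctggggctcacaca
Olfr1206, chr2:88864357-88864656, plus strand: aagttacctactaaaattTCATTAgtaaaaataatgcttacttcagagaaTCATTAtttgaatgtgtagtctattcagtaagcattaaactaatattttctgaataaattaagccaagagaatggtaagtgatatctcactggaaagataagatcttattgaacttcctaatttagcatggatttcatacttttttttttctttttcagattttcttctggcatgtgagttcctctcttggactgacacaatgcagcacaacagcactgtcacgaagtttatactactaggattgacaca
Olfr1263, chr2:90014682-90014981, plus strand: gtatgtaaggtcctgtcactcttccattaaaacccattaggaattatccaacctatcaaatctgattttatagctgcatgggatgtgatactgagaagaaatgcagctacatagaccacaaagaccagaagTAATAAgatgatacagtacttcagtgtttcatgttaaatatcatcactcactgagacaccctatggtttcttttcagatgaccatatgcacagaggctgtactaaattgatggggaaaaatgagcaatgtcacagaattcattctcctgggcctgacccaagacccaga
Olfr1264, chr2:90022015-90022314, minus strand: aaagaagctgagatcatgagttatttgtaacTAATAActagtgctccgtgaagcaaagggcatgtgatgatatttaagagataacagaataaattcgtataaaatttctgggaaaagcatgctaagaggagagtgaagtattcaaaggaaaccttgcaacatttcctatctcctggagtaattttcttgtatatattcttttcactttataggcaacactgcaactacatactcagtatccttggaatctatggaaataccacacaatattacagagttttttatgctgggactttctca
Olfr1214, chr2:88988151-88988450, minus strand: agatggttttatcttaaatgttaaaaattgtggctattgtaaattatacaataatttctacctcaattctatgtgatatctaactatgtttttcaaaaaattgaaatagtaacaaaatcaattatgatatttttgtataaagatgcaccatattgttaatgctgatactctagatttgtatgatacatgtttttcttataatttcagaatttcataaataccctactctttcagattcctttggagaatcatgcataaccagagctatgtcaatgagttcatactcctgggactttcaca
Olfr1204 holds 2 such sites, Olfr1206 holds 2, Olfr1263 and Olfr1264 hold 1 each, and Olfr1214 holds 0. Compared base by base without gaps, the windows of Olfr1204 and Olfr1206 shared 105 of 300 bases. A match is a run of letters and not a shown binding site.

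The same letters were searched in every window on both strands. TAATNA was in 151 of 194 windows of the cluster's genes, 77.8%, in 62.8% of 753 windows of other OR genes and in 26.5% of all 32851 windows. TAATTA, which is its own reverse complement and one form of TAATNA, was in 25.8%, 16.7% and 5.29%. TAATGA or TCATTA was in 28.9%, 28.8% and 9.78%. The Ebf-type core CCCNNGGG was in 2.58%, 3.19% and 13.7%. The windows of the cluster were richer in A and T, with a median of 67.7% against 63.3% in other OR genes and 47.3% in all windows, and in 71.1% of them the annotated start was an ATG, against 5.83% of all. Members with a TAATTA had a median difference of -0.15 (50 genes) and those without -0.20 (142 genes), and with TAATNA the values were -0.19 (149 genes) and -0.23 (43 genes). How often the motif occurred was not tested against base composition.

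By receptor family, the 18 MOR families with at least 5 rows were set in chromosome order. MOR203, MOR175 and MOR185, all in the early part of run 1, had medians of -0.37, -0.41 and -0.35. Without knockout replicate 2 these were -0.27, -0.21 and -0.20. In MOR264, MOR177 and MOR174, from the middle, 14 of 14, 12 of 12 and 11 of 11 rows were below 0. Without knockout replicate 2, 5, 2 and 1 of these rows were above 0, and the medians were -0.05, -0.09 and -0.12. MOR174 ranged down to Olfr1176, at 10.22 ± 0.56 in controls and 9.59 ± 0.95 in knockouts (SD, n = 4). MOR245 and MOR248, found mainly in run 2, had medians of 0.07 and 0.10, with 14 of 23 and 11 of 15 rows above 0. Without knockout replicate 2 the medians were 0.20 and 0.31, with 19 and 14 rows above 0. With all samples the highest members of MOR245 and MOR248 were Olfr1275 at 0.36 and Olfr1281 at 0.35. Olfr1281 spread widely, from 4.28 to 6.97 in the knockouts against 5.34 to 6.05 in the controls. Single families spanned wide ranges: MOR232 ran from -0.25 to 1.30, MOR233 from -0.71 to 0.16 and MOR231 from -0.72 at Olfr1253 to 0.42 at Olfr1256.

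**Figure D5:**
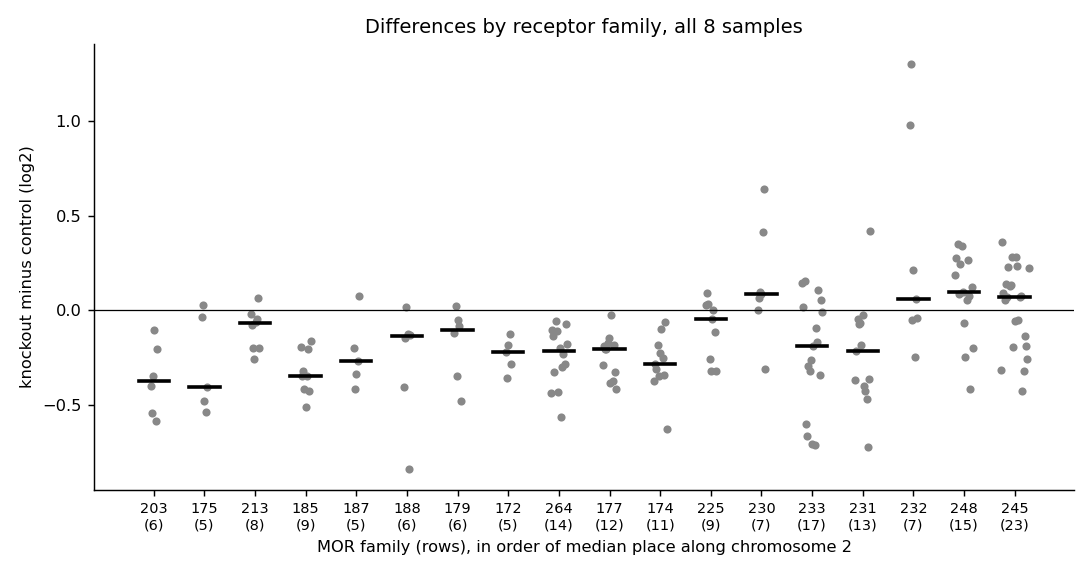
Knockout minus control difference (log2, all 8 samples) of each row in the 18 MOR families with at least 5 rows, ordered by their median place along chromosome 2; grey points are rows and black bars the family medians. Medians lie below 0 for most families and above 0 for MOR230, MOR232, MOR248 and MOR245. Points far from their family median include Olfr1087 in MOR188, Olfr1206 in MOR230, Olfr1256 in MOR231 and the neighbours Olfr1202 and Olfr1204 in MOR232.

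A few members were named for reasons other than their values here. Olfr1019, a receptor for a component of fox odour, was 7.32 ± 0.27 in controls and 7.04 ± 0.40 in knockouts. Olfr1249 was 6.95 ± 0.31 and 6.52 ± 0.35, with differences of -0.41 on arrays 1 to 4 and -0.44 on arrays 5 to 8. Olfr1277 was 7.05 ± 0.25 and 7.24 ± 0.31, and Olfr1309 was 5.85 ± 0.19 and 5.80 ± 0.19 (SD, n = 4 throughout). None passed the test. The 95% intervals of the differences were -0.33 to 0.23 for Olfr1309 and -0.74 to 0.19 for Olfr1019.

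The 2 kinds of control were compared with the knockouts separately in a fit of 3 genotypes. Against 123Cre:Emx2(fl/+) the members' median difference was -0.24 and against Emx2(fl/fl) it was -0.10. Between the controls it was 0.15, higher with Cre, and 187 of 241 members were above 0, 77.6%. The OR rows outside the cluster were much alike in this, with a median of 0.11 and 72.0% above 0. Over all rows 47.9% were above 0. No member passed in any of the 3 contrasts. Both contrasts with the knockouts share the same 4 knockouts. Members picked for their differences from all controls are therefore bound to look partly alike in the 2. Olfr1087 differed by -0.86 ± 0.23 (SE) and -0.82 ± 0.23, Olfr1204 differed by 1.14 ± 0.53 and 1.47 ± 0.53, and Olfr1037 by -1.04 ± 0.37 and -0.83 ± 0.37. Other named members were less alike, with Olfr1176 at -0.91 and -0.34 and Olfr1249 at -0.58 and -0.27. Each control genotype has 2 samples, 1 on arrays 1 to 4 and 1 on arrays 5 to 8, and the differences between control genotypes for Olfr1087 (0.04) and Olfr1204 (0.33) were within their errors (SE 0.27 and 0.61).

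Genes of other kinds around the receptors were also read. Of 23 protein-coding genes that are not ORs and flank or lie inside the runs, 0 passed the test and 0 reached an unadjusted p under 0.05, with differences from -0.25 to 0.33 and a median of 0.02. Inside run 1, Fads2b, which is related to fatty acid desaturases, was 8.44 ± 0.26 and 8.77 ± 0.23, and the Prame-like genes Pramel6 and Pramel7 differed by -0.01 and 0.02 (SD, n = 4). At the edges, the apelin receptor gene Aplnr differed by 0.03 and the nucleoporin gene Nup160 by -0.11. The ORs with other numbers that lie inside run 1, 13 rows, had a median of -0.31, with Olfr73 at -0.40, Olfr140 at 0.22 and Olfr48 at 0.17. None of the 13 passed.

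Among genes that act in OR choice and trafficking, 21 of 21 were measured, 1 was lower past the test (Emx2) and 0 higher. By direction alone, 19 of the 21 were below 0 and 2 above. Rtp2, which brings ORs to the cell surface, was 10.93 ± 0.04 in controls and 10.53 ± 0.13 in knockouts (limma adjusted p = 0.128, and 0.036 without knockout replicate 2). The unfolded protein response genes Atf5 and Eif2ak3 and the demethylase gene Kdm1a did not pass. Of the 15 mature OSN markers, 12 were below 0 and 3 above, and of the 15 immature OSN markers 13 were below and 2 above. Among the mature markers, the channel subunit gene Cnga4 differed by 0.27, Omp by -0.06, the calcium-binding protein gene S100a5 by -0.52 and the chloride channel gene Ano2 by -0.35, and none passed with all samples (S100a5 had an adjusted p of 0.010 without knockout replicate 2). Of the immature markers, Gap43 differed by -0.23 and Gng8 by 0.12. For other cell types the sums are given in turn: for 5 sustentacular genes the log2 levels summed to 59.1 to 60.3 in controls and 59.5 to 61.1 in knockouts. Respiratory ciliated genes summed to 72.3 to 73.8 and 73.3 to 75.6, muscle genes to 44.1 to 45.5 and 45.0 to 46.4, vomeronasal genes to 44.1 to 44.7 and 43.3 to 44.6, and bulb and brain genes to 45.0 to 49.2 and 44.4 to 46.4. The differences were above 0 for 7 of 7 respiratory ciliated and 6 of 6 muscle genes. They were below 0 for 6 of 6 bulb and brain genes. Of the sustentacular genes 3 were above 0 and 2 below, and of the vomeronasal genes 1 above and 3 below. No gene of these other cell type lists passed, none had a level at 0, and their part in the OR differences was not tested.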

How the data were processed

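Total RNA from P1 olfactory mucosa of 8 mice was measured on Affymetrix Mouse Gene 1.0 ST arrays. The values deposited by the authors are on the log2 scale, 1 per transcript cluster, and were used as they stood. Affymetrix Expression Console appears in the processing notes of the submitters, and its version, the background correction and the normalization were not stated in the sources read here. The quartiles of the arrays were close to equal. The depth of an array is not a count, and 4 arrays per group limit the precision. All 8 value columns matched a sample. Groups came from the genotype labels. Rows were named through GEO's platform annotation: of 35557 rows, 21789 had 1 symbol and 1621 several, and these 23410 were tested. Position and biotype came from RefSeq's mouse gene table, used for gene order and MOR family names (in its synonyms), with a gap of 1 Mb ending a run.

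Knockouts were compared with controls in limma 3.58.1 (R 4.3.3; lmFit and eBayes), with Benjamini-Hochberg adjustment over all 23410 rows; "passed" means an adjusted p under 0.05. Each difference is the knockout mean minus the control mean (log2), and levels were not compared between rows. Named members were those with an adjusted p under 0.05, up to 10 per direction at an unadjusted p under 0.01, the highest and lowest means, groups that do not overlap by over 0.5, the extremes of MOR families with 5 or more rows, and Olfr1019, Olfr1087, Olfr1249, Olfr1277 and Olfr1309; those the results turn on are described, and Olfr995, Olfr986, Olfr1202, Olfr1205, Olfr1262, Olfr1263, Olfr1265 and Olfr1307 were added after their values were seen. The members and gene lists were chosen with earlier results of these data known. Other settings tried were quantile normalization, the methods' t-test, other centrings, a filter on dim rows, rows with several symbols, robust eBayes, array weights, array order, each control genotype and each sample left out; leaving out Olfr986 and centring on the members were chosen after seeing the data. On simulated data the fit recovered 88 of 100 rows changed by 1 log2 unit and 99 of 100 changed by 2, and called 6 of 23210 unchanged rows. The simulated rows were drawn from all 23410, where the median SE was 0.105; it was 0.220 among the members, for which recovery was not measured separately.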

Additional observations from a re-analysis of the deposited data

Results flagged for a closer look

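Among the members named, 58 groups of 4 samples were examined for a sample set apart from the other 3, and 6 had one. For a single group taken at random, chance gives about 1 in 20. Many of these members were named for their values and all share the same arrays, so that rate does not apply to them as a set. Knockout replicate 2 was the low sample in Olfr986, at 6.55 against 7.11 to 7.20 in the other knockouts, and in Olfr1264, at 9.72 against 10.80 to 10.94. Control replicate 2 was low in Olfr1019, at 6.91 against 7.44 to 7.47, and in Olfr1176, at 9.39 against 10.42 to 10.58. Control replicate 3 was low in Olfr1256, at 7.50 against 7.84 to 7.89, and control replicate 4 was high in Olfr1206, at 7.08 against 6.88 to 6.90. Over all 241 rows the lowest knockout was set apart in 21, of which 20 were knockout replicate 2, and the lowest control in 9. The highest control was set apart in 5 and the highest knockout in 0.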

How the results depend on the processing

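The count of members with an adjusted p under 0.05 was 0 with all samples; it was 8 with array weights, 3 with array order as a term, and 0 to 7 when 1 sample was left out, the 7 being without knockout replicate 2. At an unadjusted p under 0.01 the count was 4 members, beside 407 of all 23410 rows. In brackets after each count is that over all rows. It became 8 (117) when arrays were centred on the members, 1 (467) by the methods' t-test and 7 (387) after quantile normalization. It was 2 (389) when centred on rows that are not ORs, 24 (1157) with array weights and 15 (618) with array order as a term. Against 123Cre:Emx2(fl/+) only it was 2 (188) and against Emx2(fl/fl) only 0 (255). Without the dimmest 30% of rows it was 0 of the 94 members left (196 of 16387 rows). Olfr1087, Olfr1214, Olfr1037 and Olfr1029 were among the dim rows left out and were not refitted. Leaving out 1 sample gave 1 member (without control replicate 3 or knockout replicate 1) to 19 (without knockout replicate 2). It gave 2 without control replicate 1 or 4 and 7 without knockout replicate 4. Over all rows these fits gave 256 (without control replicate 3) to 736 (without knockout replicate 2). With all samples and a threshold of 0.05 the members' count was 16, beside 6.1% of all rows. At 0.001 it was 0, beside 124 of all rows lower and 13 higher. Centring on the mature OSN list moved the median of all rows by 0.13. At an unadjusted p under 0.01 it gave 1 member lower and 5 higher, beside 0.589% and 3.4% of all rows. The median difference of the cluster was -0.30 to -0.01 over all alternatives. Of 26 named members, 25 kept their sign in every setting that could be fitted. Olfr1309, at -0.05, became 0.10 centred on the members, 0.076 centred on mature OSN markers, 0.012 with array weights, 0.081 against Emx2(fl/fl) only, and -0.14 to 0.038 when 1 sample was left out, where it was above 0 without control replicate 1 or knockout replicate 2. The cause of these changes was not tested. No paired analysis was possible because the labels give no replicate numbers, litters or pairs.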
